A study of Mus musculus with 6 samples.

Results

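Integrins and the proteins that assemble on their inner side in focal adhesions were followed as a set of 42 genes, 18 integrin subunits (11 α and 7 β) and 24 intracellular adaptors, kinases and actin linkers, in mouse advanced embryonic stem cells (ASCs) with and without *Bdh2*. The members were the rows of the gene count table that carry these 42 gene names, of 54715 genes in all. The rule itself goes by name, but the 42 names were put together with earlier results of these data known. RNA of 3 replicates of WT ASCs (genotype wild type) and 3 replicates of *Bdh2*-knockout ASCs (genotype Bdh2-/-) was sequenced. Both came from a cross of a 129/sv female with a GOF/GFP male, so both carry a green reporter driven by *Oct4* sequences. Both were grown in N2B27 medium supplemented with leukemia inhibitory factor, CHIR99021, BMP4 and activin A, on plates coated with fibronectin, so an integrin ligand was supplied to WT and knockout cells alike. The knockout was made with CRISPR/Cas9, lines were grown from single picked colonies, and a single ASC clone with a short deletion on both alleles was carried into the later experiments, so clone and genotype cannot be told apart where the libraries came from it. The labels do not give the clone of each library. Whether replicates were separate cultures is not given in the sources used here, so the p-values measure the spread between these libraries, which may be technical.

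Integrins are receptors made of an α and a β chain. The pair decides which matrix protein is bound. Chains that recognise the short RGD sequence hold fibronectin and vitronectin, others hold laminin or collagen. Inside the cell the β tail binds talin and kindlin, which switch the receptor on. The complex of ILK, PINCH and parvin, the kinases FAK and SRC and a layer of vinculin, α-actinin, filamin, tensin and Ena/VASP proteins then couple it to actin. In the early mouse embryo β1 integrins and laminin hold the inner cell mass and its endoderm layer on a basement membrane.

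The libraries held 18927748 to 28333541 counts on genes, and 3 counts corresponded to between 0.109 and 0.154 CPM, the count relative to its library's total after TMM scaling. This covers counting error only. The knockout libraries held 164, 136 and 129 counts of *Bdh2* and the WT libraries 203, 193 and 209, a fall to 0.579 of the WT level. Most of the counted exons lie outside the deleted bases, so this is only a partial check of the labels. Transcripts that mark pluripotent stem cells, the cell type in the labels, were present in both genotypes, with *Pou5f1* at 1929 TPM (the count per gene length, scaled to the same total in each library) in WT and 2157 in knockout cells. Of the 9 markers on this list 4 rose, 1 fell and 4 were not called, where 41.7% of all tested genes were called. The marker that fell, *Dppa5a*, went from 10954 to 9551 TPM. Their summed level was 16710 to 17240 TPM in WT and 15562 to 16115 TPM in knockout replicates. All 13 primitive endoderm markers rose, none was at 0, and their summed level was 177 to 197 TPM in WT and 411 to 459 TPM in knockout replicates. Of 18 hepatocyte markers 14 fell, none was at 0, and their summed level was 627, 389 and 63.5 CPM in WT replicates 1, 2 and 3 and 53.9, 189 and 37.1 CPM in knockout replicates 1, 2 and 3. WT replicates 1 and 2 and knockout replicate 2 were above the other libraries by these markers, which belong to a cell type the labels do not name. Of 12 markers of liver endothelium and blood 4 could be tested, with *Cd68* higher and *Pecam1* lower and the leukocyte marker *Ptprc* at or under 0.258 CPM in all libraries, and of 8 fibroblast markers 6 could be tested, with *Col1a1* and *Pdgfrb* lower. These calls made up 50% and 33.3% of the tested genes of the 2 lists, against 41.7% of all tested genes. In these bulk libraries fewer cells of a type and less RNA per cell cannot be told apart. The part of the endoderm markers in the results was not tested, and the calls lost with the hepatocyte markers as a covariate are given with that value beside them.

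Of the members that passed the test more were higher than lower in knockout cells. Among the members that could be tested the largest increases were those of *Itga8*, the α chain of the nephronectin receptor, at 2.82 times the WT level, and *Fermt1* (kindlin-1), at 2.10 times. The largest fall among them was that of *Itga4*, the α chain that binds VCAM-1 and fibronectin, to 0.448 of the WT level. Of the 42 members 39 passed the filter on low counts, and 23 of these differed between genotypes at an adjusted p under 0.05 (edgeR, quasi-likelihood test), 17 higher and 6 lower in knockout cells. Over all 16758 genes tested 41.7% passed, 21.0% higher and 20.8% lower, so a call in this comparison was common. In a fit limited to genes with a mean count of at least 50, 21 members and 50% of all genes passed. The genotypes did not overlap for 27 of the 39 members, against 52.4% of all genes. A change of at least 2-fold was found for 3 members, against 5.29% of all genes. The median log2 fold change was 0.16 over the tested members and -0.01 over all tested genes. Without knockout replicate 1, 2 or 3 the members called lower numbered 2, 3 and 3 in place of 6. Over all genes 33.9%, 32.5% and 32.7% were then called in either direction. With the hepatocyte markers as a covariate 21 members were called, 16 higher and 5 lower, and 31.0% of all genes. With library totals in place of TMM factors the members split into 17 higher and 7 lower, while the share of higher calls over all genes went from 50.3% to 38.0%.

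The integrin subunits and the intracellular members were then set apart. Of 16 tested integrin subunits 6 rose, 2 fell and 8 were not called, and their median log2 fold change was 0.10. Among 23 tested intracellular members 11 rose, 4 fell and 8 were not called, with a median of 0.29. The shares called were 50% of the integrin subunits and 65.2% of the intracellular members, against 41.7% of all tested genes. When the test asked for a change beyond 1.2-fold, 7 integrin subunits (6 higher, 1 lower) and 7 intracellular members (6 higher, 1 lower) were called, against 14.7% of all genes.

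**Figure D1:**
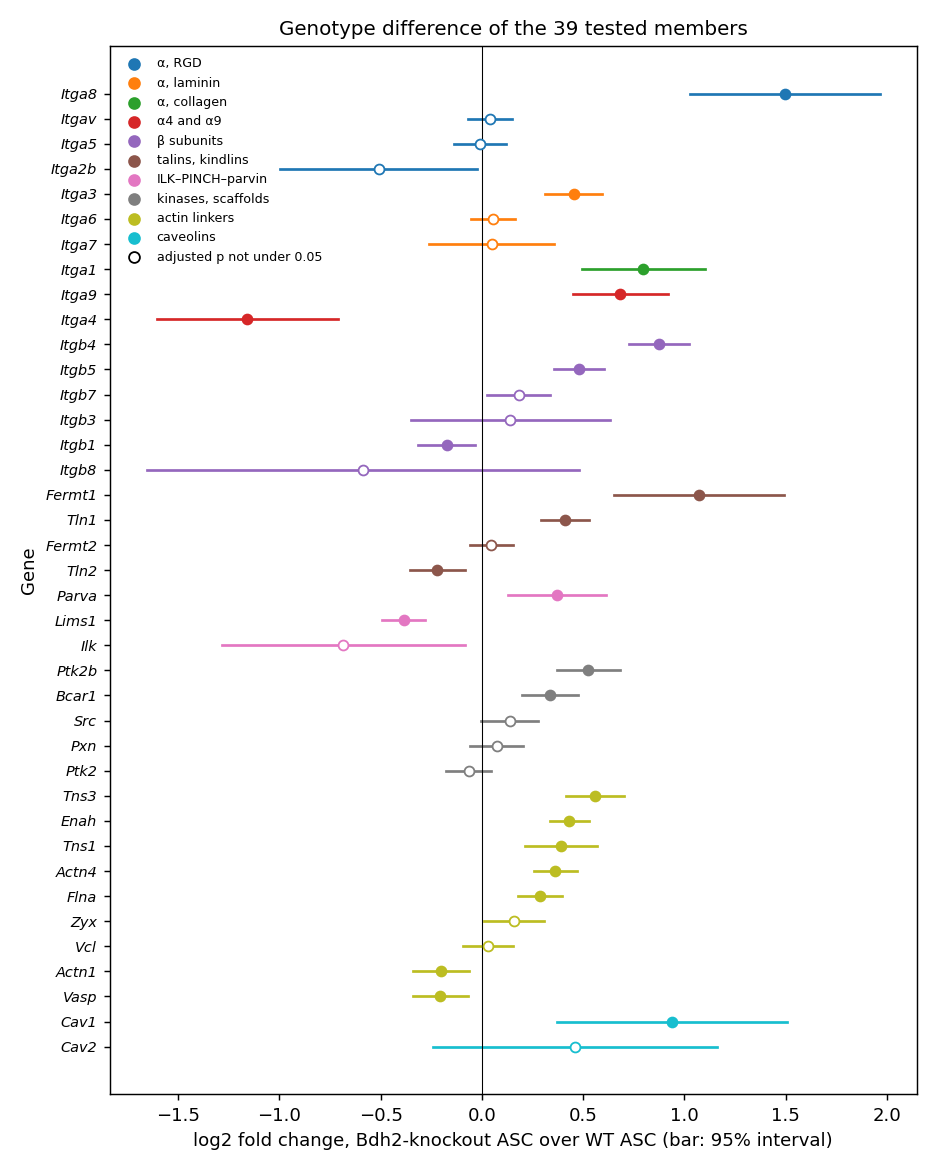
Log2 fold change of *Bdh2*-knockout over WT ASCs for the 39 tested members (x axis), ordered by role (y axis). Points are edgeR estimates from 3 against 3 replicates, bars are 95% intervals, and open points mark an adjusted p of 0.05 or more. *Itga8* at 1.5 and *Itga4* at -1.16 lie at the ends, and most filled points among the intracellular members lie right of 0.

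Levels were compared between genes per length, in TPM. *Itgb1*, the β1 chain shared by most matrix receptors, was the most abundant integrin transcript at 166 ± 14.3 TPM in WT ASCs and 146 ± 5.16 in knockout ASCs (SD, n = 3). *Itga6*, the laminin-binding partner of β1 and β4, followed at 55.0 ± 2.53 and 56.7 ± 1.62 TPM, and *Itga5*, the α chain of the fibronectin receptor, at 29.4 ± 2.26 and 29.0 ± 0.557 TPM. In WT cells the ranges of these 3 subunits did not overlap, so their order exceeded the spread. Next came *Itgb7* at 20.9 TPM and *Itgb5* at 20.5 TPM, whose WT ranges overlapped, then *Itgav* at 12.3 and *Itga3* at 11.2 TPM, which also overlapped. *Itgb4* stood at 5.13 TPM and *Itga9* at 2.55 TPM, each apart from its neighbours. The other 9 subunits were under 2 TPM in the mean of either genotype. In knockout cells *Itgb5* moved up to 28.5 TPM, where its range overlapped that of *Itga5*, and *Itga3*, at 15.3 TPM, stood above *Itgav*, at 12.6 TPM, with no overlap. The summed level of all integrin subunits was 329 ± 17.2 TPM in WT and 332 ± 5.88 TPM in knockout cells, a ratio of 1.01, which turned to 0.989 without WT replicate 1.

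**Figure D2:**
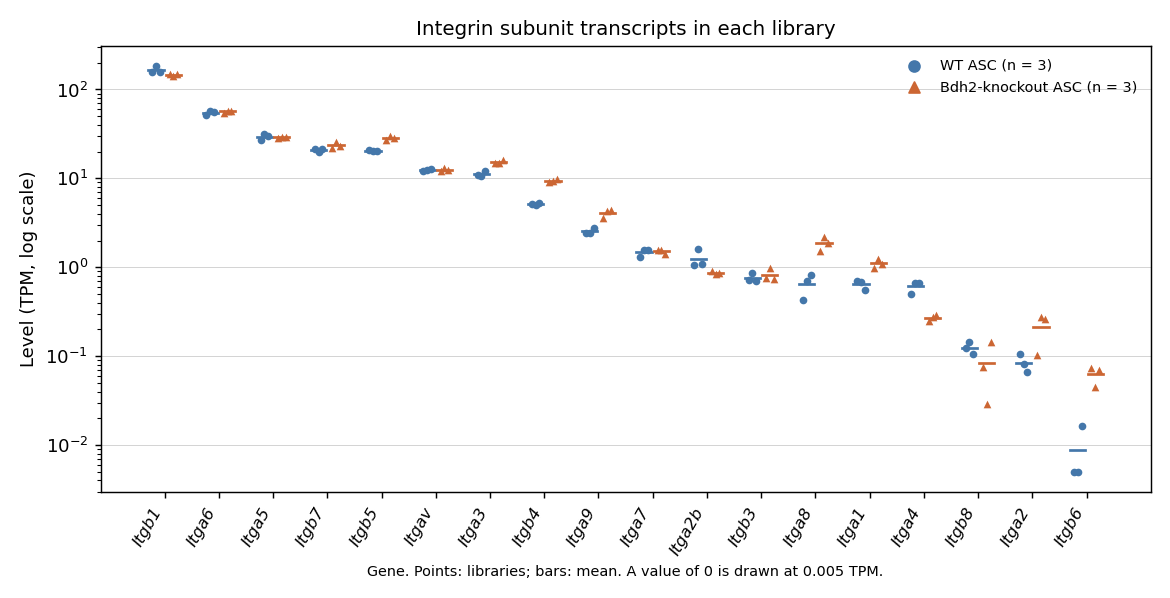
Level of each integrin subunit in each library (y axis, TPM on a log scale) for 18 subunits ordered by their WT mean (x axis). Circles are the 3 WT and triangles the 3 *Bdh2*-knockout replicates, and bars are means. *Itgb1* lies above all others, and the separated clouds of *Itgb5*, *Itgb4*, *Itga9*, *Itga8*, *Itga1* and *Itga4* are the larger called differences.

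The shares of 13 of the 18 subunits in the summed α or β level did not overlap between genotypes, whereas the summed level of all integrins did (exact permutation p = 0.8). In their levels 52.4% of all tested genes did not overlap, and shares were not computed for other genes. The shares within a pool are tied to each other, so the 13 are not independent. Among them is *Itgb6*, with 0, 0 and 1 counts in WT replicates 1, 2 and 3. *Itgb1* made up 76.8, 79.8 and 76.5% of the summed β subunit TPM in WT replicates 1, 2 and 3 and 71.4, 68.1 and 70.8% in knockout replicates 1, 2 and 3. *Itgb5* made up 9.64% ± 0.619 in WT and 13.6% ± 0.695 in knockout cells (SD, n = 3), and *Itgb4* 2.41% ± 0.212 and 4.48% ± 0.127. In the α pool *Itga6* went from 47.7% ± 0.468 to 45.9% ± 0.0825 and *Itga5* from 25.5% ± 0.750 to 23.5% ± 0.266, while *Itga3* went from 9.77% ± 0.720 to 12.4% ± 0.481. The levels of *Itga6* and *Itga5* themselves were close, at 55.0 ± 2.53 and 56.7 ± 1.62 TPM and at 29.4 ± 2.26 and 29.0 ± 0.557 TPM, and neither gene was called. Each of the 13 shares gave p = 0.1 in a two-sided exact permutation test, the smallest that 3 against 3 replicates allow. Adjusted over all 18 shares this was 0.138. The ratio of summed α to summed β TPM was 0.540 ± 0.0293 in WT and 0.592 ± 0.0164 in knockout cells (exact permutation p = 0.1). WT replicate 3, at 0.574, and knockout replicate 1, at 0.575, nearly met. A share does not depend on how the libraries were scaled.

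**Figure D3:**
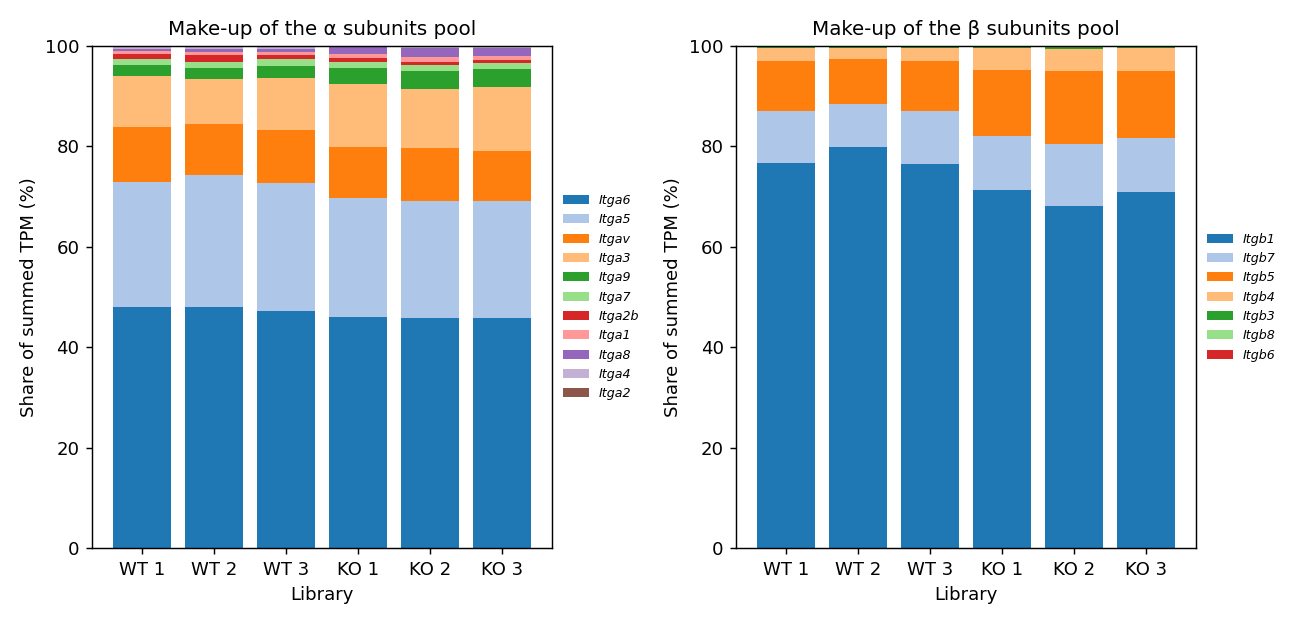
Share of each subunit in the summed TPM of the α subunits (left) and of the β subunits (right) in each of the 6 libraries (y axis, percent). Each bar is 1 library and each colour 1 gene. The *Itgb1* block is shorter in all 3 knockout libraries (68.1% to 71.4%) than in all 3 WT libraries (76.5% to 79.8%), and the *Itgb5* and *Itgb4* blocks are taller.

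Among the α chains that bind RGD ligands 1 of 4 rose (21.0% of all tested genes did). *Itga8* (ENSMUSG00000026768; GRCm38 chr2:12106632-12301922, minus strand) was at 1.08, 1.78 and 2.02 CPM in WT replicates 1, 2 and 3 and at 3.96, 5.43 and 4.59 CPM in knockout replicates 1, 2 and 3, on 21, 36 and 51 and 109, 148 and 110 counts. Every knockout library was above every WT library (log2 fold change 1.5 ± 0.22 (SE), adjusted p = 0.00015), and the values without 1 library ran from 1.29 to 1.69. *Itga5* and *Itgav*, the α chains of the main fibronectin and vitronectin receptors, were not called, with log2 fold changes of -0.01 (95% interval -0.14 to 0.12) and 0.04 (-0.07 to 0.15). *Itga2b*, the platelet fibrinogen receptor chain, was lower in all 3 knockout libraries at 1.62 ± 0.106 against 2.32 ± 0.608 CPM but did not pass (log2 fold change -0.51 ± 0.23 (SE), adjusted p = 0.0865).

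Of the laminin receptors 1 of 3 rose (21.0% of all tested genes). *Itga3*, a chain of epithelial laminin receptors, was at 21.1, 20.8 and 23.3 CPM in WT replicates 1, 2 and 3 and at 29.7, 28.8 and 31.0 CPM in the knockout replicates (log2 fold change 0.45 ± 0.07 (SE), adjusted p = 0.000143). The genotypes were apart. The more abundant *Itga6* was not called at 168 ± 8.27 and 175 ± 1.87 CPM (log2 fold change 0.05, 95% interval -0.06 to 0.16), nor was *Itga7*, the muscle laminin receptor chain, at 4.04 ± 0.378 and 4.18 ± 0.264 CPM. The collagen receptor chain *Itga1* was at 4.38, 4.36 and 3.48 CPM in WT and 6.35, 7.88 and 6.89 CPM in knockout replicates, again with no overlap (log2 fold change 0.80 ± 0.14 (SE), adjusted p = 0.000635), and its log2 fold change was 0.99 with the hepatocyte covariate. Its neighbour *Itga2* failed the filter and is given with the low-count members.

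The related chains *Itga4* and *Itga9* moved in opposite directions. *Itga9*, which binds tenascin-C, was at 6.28, 6.44 and 7.2 CPM in WT and 9.62, 11.1 and 11.4 CPM in knockout replicates 1, 2 and 3 (log2 fold change 0.68 ± 0.11 (SE), adjusted p = 0.000277). *Itga4* (ENSMUSG00000027009; GRCm38 chr2:79255426-79333123, plus strand) was at 2.37, 3.22 and 3.09 CPM in WT and 1.2, 1.32 and 1.38 CPM in knockout replicates, on 46, 65 and 78 and 33, 36 and 33 counts. It fell in every knockout library relative to every WT library (log2 fold change -1.16 ± 0.21 (SE), adjusted p = 0.000673). In the GENCODE annotation of the build, 8.04% of the *Itga4* exon bases are shared with *Cerkl* on the opposite strand, and whether the counting used strand is not given in the sources used here.

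The 150 bases before the start of the 2 α chain genes at the ends of the range are shown for comparison, from RefSeq (GRCm38.p6) and in the direction of transcription, with the GC box GGGCGG or its complement in capitals.
Itga8 (chr2:12301945-12302094, minus strand): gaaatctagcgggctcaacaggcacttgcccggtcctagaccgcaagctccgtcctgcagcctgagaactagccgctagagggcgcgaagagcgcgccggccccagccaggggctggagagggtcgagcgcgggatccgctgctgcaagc
Itga4 (chr2:79255276-79255425, plus strand): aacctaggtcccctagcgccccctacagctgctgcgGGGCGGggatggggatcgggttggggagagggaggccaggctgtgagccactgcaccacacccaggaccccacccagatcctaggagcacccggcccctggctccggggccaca
The *Itga8* stretch holds 0 GC boxes and the *Itga4* stretch 1. Over the table's window of 250 bases before to 50 after the start, 32 of the 42 members had an entry, and 23 of these (71.9%) held GGGCGG on either strand in at least one promoter. Counted in the same way by gene, it was in 38.2% of the 27025 genes in the table and in 67.6% of the 11478 that were also tested here, so the members' share was near that of the tested genes. Of 14 higher and 5 lower members with an entry, 10 and 4 held it, so the box was found in members that moved either way. TATAAA was found in 2 members (6.25%; 15.7% of all genes in the table and 8.80% of the tested ones), GATAA, the core that GATA factors read, in 3 (9.38%; 28.4% and 19%), and CATTCC, the core read by TEAD factors, in 4 (12.5%; 16.6% and 14.7%). A match is a description of the letters and not a binding site.

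Of the 6 tested β chains 2 rose and 1 fell (21.0% and 20.8% of all tested genes). *Itgb4*, the partner of α6 that anchors epithelial cells to laminin, was at 12.4, 11.9 and 12.3 CPM in WT and 22, 22 and 23.0 CPM in knockout replicates 1, 2 and 3, on 240, 240 and 311 and 607, 599 and 552 counts (log2 fold change 0.87 ± 0.07 (SE), adjusted p = 1.15e-06). *Itgb5*, the vitronectin-binding partner of αv, was at 24.9, 24.8 and 24.4 CPM in WT and 33.8, 35.9 and 33.8 CPM in knockout replicates (log2 fold change 0.48 ± 0.06 (SE), adjusted p = 3.17e-05). For both genes the replicates of a genotype lay close together and far from the other genotype. *Itgb1* was at 219, 255 and 215 CPM in WT and 210.4, 194 and 206 CPM in knockout replicates, a fall of little more than the spread, and WT replicate 3 and knockout replicate 1 nearly met (log2 fold change -0.17 ± 0.06 (SE), adjusted p = 0.0444). This call was lost without WT replicate 2 (adjusted p = 0.204), without knockout replicate 1, 2 or 3 (0.0844, 0.176 and 0.117) and with the hepatocyte markers as a covariate (0.133). *Itgb7*, the β chain of lymphocyte homing receptors, did not overlap between genotypes but missed the threshold at 19.6 ± 0.727 and 22.2 ± 1.62 CPM (log2 fold change 0.18 ± 0.07 (SE), adjusted p = 0.0591). *Itgb3* was at 1.52 ± 0.187 and 1.67 ± 0.276 CPM and *Itgb8*, which activates latent TGF-β together with αv, at 0.468 ± 0.0747 and 0.314 ± 0.217 CPM. With 28 to 54 and 3 to 13 counts per library these intervals were wide, -0.35 to 0.63 and -1.66 to 0.48 on the log2 scale.

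Among the intracellular members the actin linkers were the most abundant. In WT cells *Actn4* led at 258 ± 16.9 TPM, followed by *Vasp* at 198 ± 20, *Flna* at 168 ± 9.33 and *Actn1* at 114 ± 11.5 TPM, with no overlap between neighbours. *Src*, *Fermt2* and *Tns3* followed at 62.2, 56.8 and 50.7 TPM, and *Fermt2* overlapped both *Src* and *Tns3*, which did not overlap each other. In knockout cells *Flna*, at 203 ± 8.63 TPM, stood above *Vasp*, at 171 ± 4.46 TPM, with no overlap, and *Tns3* stood above *Src*. The summed level of the 24 genes was 1165 ± 82.4 TPM in WT and 1289 ± 32.8 TPM in knockout cells, a ratio of 1.11, and WT replicate 3 overlapped the knockout replicates (exact permutation p = 0.2).

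**Figure D4:**
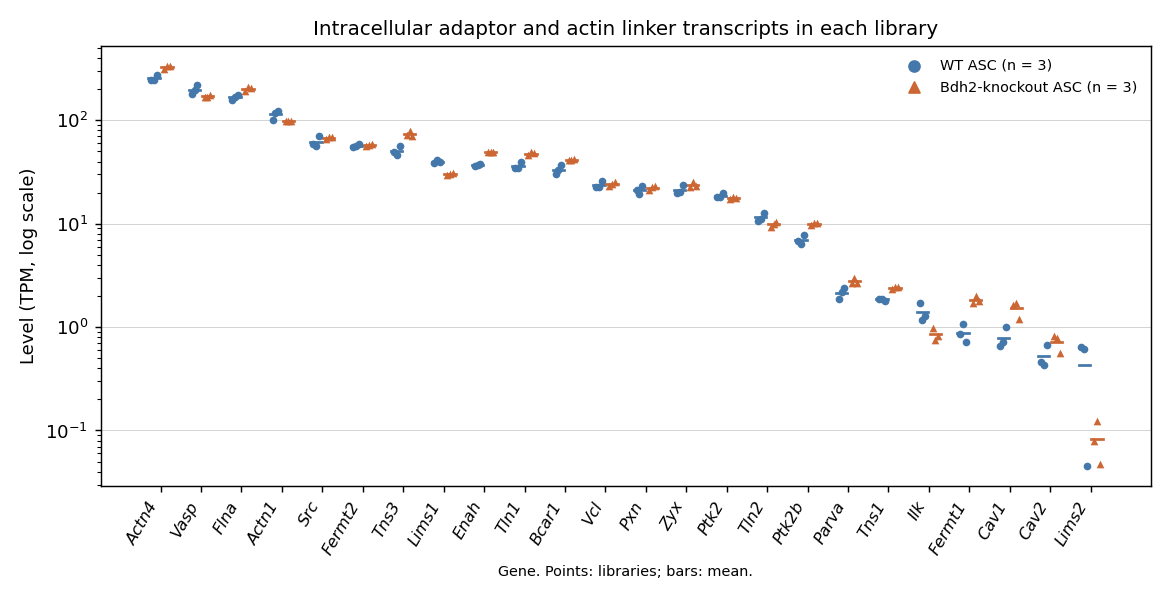
Level of each intracellular adaptor or actin linker in each library (y axis, TPM on a log scale), with 24 genes ordered by their WT mean (x axis). Circles are the 3 WT and triangles the 3 *Bdh2*-knockout replicates, and bars are means. The genes span from *Actn4* at 258 TPM to *Lims2* at 0.430 TPM in the WT mean, and *Lims2* is the gene whose WT replicates are far apart.

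Talins and kindlins, which bind the β tail and activate the receptor, were called in 3 of 4 cases (41.7% of all tested genes were). *Tln1*, the main talin, was at 116, 115 and 129 CPM in WT and 158, 163 and 158 CPM in knockout replicates 1, 2 and 3 (log2 fold change 0.41 ± 0.06 (SE), adjusted p = 8.53e-05), and the genotypes were apart. Its relative *Tln2* was at 66.9, 70.0 and 78.5 CPM in WT and 59.8, 61.5 and 64.0 CPM in knockout replicates (log2 fold change -0.22 ± 0.06 (SE), adjusted p = 0.0131). This smaller fall was lost without knockout replicate 1 (adjusted p = 0.0694). *Fermt1*, the kindlin of epithelia, was at 1.65, 2.08 and 1.39 CPM in WT and 3.38, 3.89 and 3.42 CPM in knockout replicates, on 32, 42 and 35 and 93, 106 and 82 counts (log2 fold change 1.07 ± 0.20 (SE), adjusted p = 0.000785). It stayed far below *Fermt2*, the widely expressed kindlin, in level per length, at 1.83 against 58.2 TPM in knockout cells. *Fermt2* itself was not called at 99.9 ± 3.11 and 103 ± 0.636 CPM (log2 fold change 0.05, 95% interval -0.06 to 0.15).

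The complex of ILK, PINCH and parvin links β tails to actin. *Lims1* (PINCH-1) fell from 63.8, 68.6 and 65.6 CPM in WT to 50.5, 50.2 and 50.7 CPM in knockout replicates 1, 2 and 3, and the genotypes were apart by several times the spread (log2 fold change -0.39 ± 0.05 (SE), adjusted p = 6.28e-05). Its level per length was 39.8 ± 1.30 TPM in WT and 30.2 ± 0.608 TPM in knockout cells. *Parva* (α-parvin) was at 6.39, 7.63 and 8.15 CPM in WT and 9.44, 10.3 and 9.10 CPM in knockout replicates (log2 fold change 0.37 ± 0.11 (SE), adjusted p = 0.017), a call lost without WT replicate 1 (adjusted p = 0.0625), without knockout replicate 2 (0.0656) and with the hepatocyte covariate (0.0851). *Parvb*, a parvin outside the 42 members that was chosen after its values were seen, rose from 49.5 ± 5.27 to 74.5 ± 2.67 CPM (log2 fold change 0.59 ± 0.07 (SE), adjusted p = 2.93e-05). Its level per length went from 33.1 ± 3.81 to 49.4 ± 2.66 TPM, above that of *Lims1* in knockout cells. *Ilk* was counted only 31, 22 and 30 times in WT and 26, 19 and 18 times in knockout replicates and was not called (log2 fold change -0.68 ± 0.28 (SE), adjusted p = 0.0641). Of its 2744 exon bases, 76.7% are shared with *Taf10* and 12.9% with *Rrp8*, both on the opposite strand, and 283 belong to no other gene, so its level here is uncertain. Apart from *Ilk* and *Vcl*, other genes shared at most 8.15% of a member's exon bases.

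Of the kinases and scaffolds 2 of 5 rose and the others were not called, a share near the 41.7% called over all tested genes. *Ptk2b* (PYK2), the second kinase of the FAK family, was at 17.2, 16.2 and 19.2 CPM in WT and 25, 25.7 and 25.3 CPM in knockout replicates 1, 2 and 3 (log2 fold change 0.53 ± 0.07 (SE), adjusted p = 0.000102). *Bcar1* (p130CAS), the scaffold that FAK and SRC phosphorylate, was at 46.5, 50.9 and 56.5 CPM in WT and 65.4, 64.3 and 65.1 CPM in knockout replicates (log2 fold change 0.34 ± 0.06 (SE), adjusted p = 0.0011). In both cases every knockout library exceeded every WT library. *Ptk2* (FAK) was at 74.5 ± 2.88 and 71.2 ± 0.954 CPM (log2 fold change -0.07, 95% interval -0.18 to 0.04) and *Pxn* (paxillin), the docking protein for FAK and vinculin, at 59.2 ± 4.97 and 62.4 ± 1.31 CPM (0.07, -0.06 to 0.21). *Src* was at 88.5, 85.2 and 103 CPM in WT and 101, 102 and 101 CPM in knockout replicates (log2 fold change 0.14 ± 0.07 (SE), adjusted p = 0.109). Its 3 knockout values lay within the WT range, which WT replicate 3 widened, and without that library its adjusted p was 0.00243.

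Of the 9 actin linkers 5 rose and 2 fell, where 41.7% of all tested genes were called. *Tns3*, a tensin that caps actin and binds β tails, was at 188, 176 and 211 CPM in WT and 280.1, 301 and 267 CPM in knockout replicates 1, 2 and 3 (log2 fold change 0.56 ± 0.07 (SE), adjusted p = 3.56e-05), and *Tns1* was at 10.3, 10.4 and 9.62 and 13, 13.2 and 13.3 CPM (log2 fold change 0.39 ± 0.08 (SE), adjusted p = 0.0021). *Enah* (MENA), which lengthens actin filaments, was at 264, 271 and 271 CPM in WT and 366, 362 and 357 CPM in knockout replicates (log2 fold change 0.43 ± 0.04 (SE), adjusted p = 1.04e-05). The groups of these 3 genes did not touch. The crosslinker *Actn4* was at 513, 521 and 569.5 CPM in WT and 677, 693 and 693 CPM in knockout replicates (log2 fold change 0.36 ± 0.05 (SE), adjusted p = 9.31e-05), and *Flna*, which joins actin to β tails, at 503, 542 and 557 and 636, 674 and 646 CPM (log2 fold change 0.29 ± 0.05 (SE), adjusted p = 0.000549).

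Close relatives of these genes fell. *Actn1*, the second α-actinin outside muscle, was at 190.3, 222 and 229.7 CPM in WT and 188, 185 and 185 CPM in knockout replicates 1, 2 and 3 (log2 fold change -0.20 ± 0.06 (SE), adjusted p = 0.0225). *Vasp*, a relative of *Enah*, was at 159.8, 175 and 193 CPM in WT and 152, 151 and 155 CPM in knockout replicates (log2 fold change -0.21 ± 0.06 (SE), adjusted p = 0.0186). For both genes the lowest WT value, that of replicate 1, lay just above the knockout values. The *Actn1* call was lost without WT replicate 2 or 3 (adjusted p = 0.0817 and 0.0619) and without knockout replicate 1, 2 or 3 (0.0699, 0.0672 and 0.0901). The *Vasp* call was lost without knockout replicate 1, 2 or 3 (0.0692, 0.063 and 0.0604). *Vcl* (vinculin), which bridges talin and actin, was not called at 66.2 ± 4.67 and 67.7 ± 1.51 CPM (log2 fold change 0.03, 95% interval -0.10 to 0.15; -0.05 with the hepatocyte covariate), and 25.5% of its exon bases are shared with *Ap3m1* on the opposite strand. *Zyx* (zyxin), which follows tension in actin bundles, was at 38.9 ± 3.62 and 43.6 ± 2.29 CPM (log2 fold change 0.16 ± 0.07 (SE), adjusted p = 0.077), and without WT replicate 3 its adjusted p was 0.0064.

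The promoters of the 2 α-actinin genes, which moved apart, are shown in the same form, 150 bases before the start with the GC box in capitals.
Actn4 (chr7:28962333-28962482, minus strand): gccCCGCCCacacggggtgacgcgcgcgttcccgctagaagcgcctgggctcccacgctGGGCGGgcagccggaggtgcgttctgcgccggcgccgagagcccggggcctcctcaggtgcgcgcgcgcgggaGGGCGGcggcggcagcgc
Actn1 (chr12:80260364-80260513, minus strand): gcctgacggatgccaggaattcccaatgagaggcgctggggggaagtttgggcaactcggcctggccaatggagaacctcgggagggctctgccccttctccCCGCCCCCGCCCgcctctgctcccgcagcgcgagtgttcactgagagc
The stretches hold 3 and 2 GC boxes. The CArG box, the element that serum response factor binds in many actin and adhesion genes, was found in the window of 3 members (9.38%; 1.81% of all genes in the table and 1.52% of the tested ones), *Fermt2*, *Itgb6* and *Vcl*. Windows of 30 bases around it are given, with the box in capitals.
Fermt2 (chr14:45530250-45530279, minus strand): tccttcatttCCATAAAAGGgcagcgctcc
Itgb6 (chr2:60673724-60673753, minus strand): cacctgacttCCTTATAAGGtgaatgagga
Vcl (chr14:20929161-20929190, plus strand): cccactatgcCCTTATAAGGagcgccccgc
*Fermt2* and *Vcl* were not called, and *Itgb6* was too low to be tested. *Itgb6* and *Vcl* carry the same 10 bases in the box.

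The caveolins, which coat membrane pits and bind integrin signalling proteins, were low. *Cav1* was at 0.773, 0.842 and 1.15 CPM in WT and 1.96, 2.02 and 1.38 CPM in knockout replicates 1, 2 and 3, on 15, 17 and 29 and 54, 55 and 33 counts (log2 fold change 0.94 ± 0.26 (SE), adjusted p = 0.012). The highest WT library and the lowest knockout library were close. *Cav2*, its partner in the coat, was at 0.588 ± 0.143 and 0.817 ± 0.168 CPM (log2 fold change 0.46 ± 0.33 (SE), adjusted p = 0.277). Of 8 further caveola genes 6 could be tested, and *Ehd2* (log2 fold change 0.72) and *Cavin4* (0.63) rose while *Pacsin3* (-0.42) fell. That is 50% called, near the 41.7% of all tested genes. *Cavin1*, the coat protein that most cells need for caveolae, was not called and was chosen after its values were seen, at 91.0 ± 8.01 and 95.1 ± 1.53 CPM.

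The balance between related genes was measured as the ratio of their TPM values within each library. For *Tln1* over *Tln2* the ratio was 3.25, 3.08 and 3.08 in WT and 4.95, 4.96 and 4.61 in knockout replicates 1, 2 and 3. For *Actn4* over *Actn1* it was 2.44, 2.12 and 2.24 and 3.25, 3.38 and 3.38, and for *Enah* over *Vasp* 0.201, 0.189 and 0.171 and 0.293, 0.293 and 0.281. In these 3 families all knockout libraries were above all WT libraries, by ratios of 1.54, 1.47 and 1.55 between the means. The ratio of *Ptk2b* to *Ptk2* went from 0.376 ± 0.0217 to 0.568 ± 0.00692 (SD, n = 3), that of *Fermt1* to *Fermt2* from 0.0156 ± 0.00333 to 0.0314 ± 0.00269 and that of *Cav1* to *Cav2* from 1.53 ± 0.105 to 2.12 ± 0.104. These also did not overlap, so 6 of 8 pairs were apart. In their own levels 52.4% of all tested genes did not overlap, and ratios were not computed for pairs of other genes. The pair *Tns3* and *Tns1* overlapped, at 27.4 ± 3.64 and 30.7 ± 1.90, as did *Lims1* and *Lims2*. The pairs were formed by family and the gene placed on top was chosen with the fold changes known, so the ratios are given without a test. They do not depend on the scaling of the libraries.

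**Figure D5:**
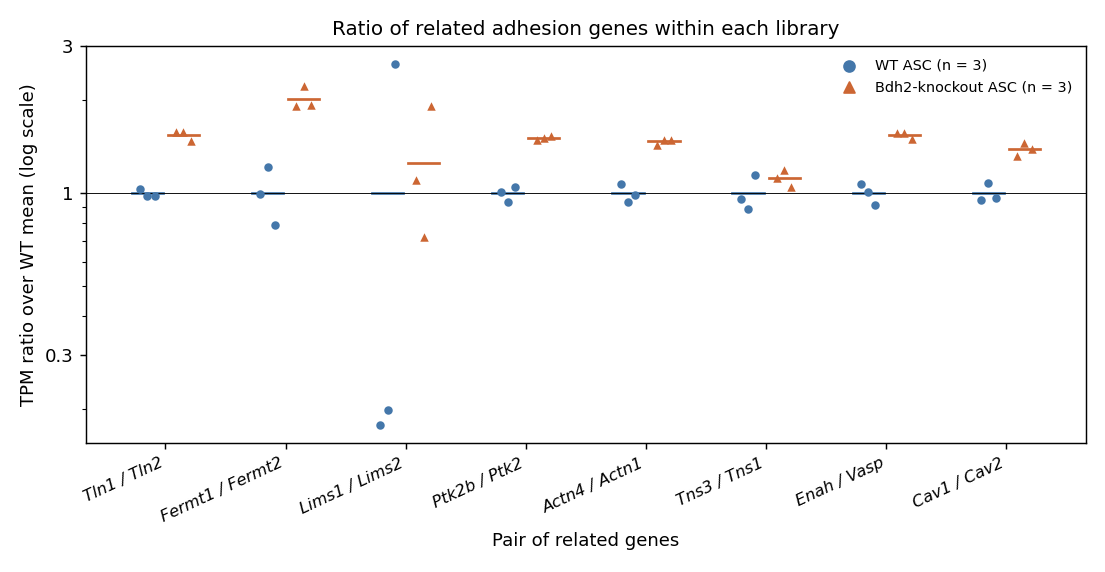
Ratio of the TPM values of 2 related genes within each library, divided by the mean of the WT libraries (y axis, log scale), for 8 pairs (x axis). Circles are the 3 WT and triangles the 3 *Bdh2*-knockout replicates, and bars are means. The knockout points lie above all WT points in 6 pairs, while *Tns3* over *Tns1* and *Lims1* over *Lims2* overlap.

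Transcripts of the matrix proteins that integrins bind were called in both directions. Of 27 genes on the list 25 could be tested, and 11 rose, 7 fell and 7 were not called (median log2 fold change 0.23), against 21.0% higher and 20.8% lower over all tested genes. The 4 with the largest change were *Col4a2*, at 18.9, 22.3 and 19.6 CPM in WT and 89.1, 100.3 and 95.7 CPM in knockout replicates 1, 2 and 3 (log2 fold change 2.23), *Col4a1* (2.17), *Lama1* (1.21) and *Vtn* (-2.12). *Col4a1* and *Col4a2* encode the collagen of basement membranes and *Lama1* the α chain of laminin-111, and all 3 are also on the primitive endoderm list. *Vtn* (vitronectin), the ligand of αvβ5, was at 11.5, 6.64 and 0.673 CPM in WT and 0.690, 3.26 and 0.209 CPM in knockout replicates, the same order of libraries as the hepatocyte markers within each genotype. *Fn1*, the gene of fibronectin, was chosen after its values were seen and fell from 1562 ± 77.2 to 1227 ± 37.1 CPM (log2 fold change -0.35 ± 0.05 (SE), adjusted p = 9.61e-05).

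Integrin subunits outside the 42 members were few. Of 9 such genes, mainly those of leukocytes, 5 could be tested, 0 rose, and *Itgae* (log2 fold change -0.56 ± 0.17 (SE), adjusted p = 0.0159) and *Itgal* (log2 fold change -0.36 ± 0.10 (SE), adjusted p = 0.0119) fell, again near the share of all tested genes (41.7%). *Itgae* encodes αE, the other partner of β7, and was at 5.81 ± 1.14 and 3.92 ± 0.447 CPM. *Itgb2*, the β chain of *Itgal*, was at 0.407 ± 0.142 and 0.549 ± 0.0665 CPM and was not called.

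Of 52 further genes of the adhesion machinery 51 could be tested, and 17 rose and 12 fell (median log2 fold change 0.08), that is 56.9% called, against 41.7% of all tested genes. Of all genes with a mean count of at least 50, 50% were called. Among the largest changes were those of *Parvg* (-1.35), the parvin of blood cells, *Nedd9* (0.89), a scaffold of the *Bcar1* family, and *Tns4* (-0.77), a tensin without the actin-binding part. *Parvg* and *Tns4* were below 2.2 CPM in every library. Of 18 targets of serum response factor and its actin-regulated partner MRTF, 3 rose and 2 fell, with a median of 0.11, and the 27.8% called was below the 41.7% of all tested genes. *Ctgf* (0.91) and *Actg1* (0.62), a cytoplasmic actin, rose, and the tropomyosin genes *Tpm1* (-0.41) and *Tpm4* (-0.25) fell.

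Some members were too low for the test. *Itga2*, a collagen receptor chain, was counted 5, 4 and 4 times in WT and 7, 18 and 15 times in knockout replicates 1, 2 and 3. *Itgb6*, the epithelial partner of αv, was counted 0, 0 and 1 and 5, 3 and 4 times, so all WT values were under the depth limit of 3 counts and no fold is given. *Lims2* (PINCH-2) was counted 11, 11 and 1 and 2, 3 and 1 times, with its high values in the same WT libraries, replicates 1 and 2, that held the most hepatocyte transcripts. In the fit without a filter the adjusted p was 0.0479 for *Itga2*, 0.0806 for *Itgb6* and 0.0126 for *Lims2*.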

How the data were processed

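RNA of 3 WT ASC and 3 *Bdh2*-knockout ASC libraries was prepared with a TruSeq RNA kit. The authors trimmed the reads, mapped them with HISAT2 2.0.5 and deposited raw counts per gene with gene lengths and positions. The genome is GRCm38. The strand setting of the counting and the annotation release are not given in the sources used here. GENCODE M21, which holds 99.6% of the identifiers, gave exons for overlaps. The members and lists were chosen with earlier results of these data known.

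Counts were fitted over the whole table in R 4.3.3 with edgeR 4.0.16 (TMM factors, filterByExpr, glmQLFit, glmQLFTest), with genotype alone in the design. The p-values of 16758 genes were adjusted by Benjamini-Hochberg and called at 0.05. The SE is the size of the log2 fold change divided by the square root of F. CPM values use the TMM library size, and TPM values the listed gene lengths. Shares and sums were compared by exact permutation (two-sided), where 3 against 3 cannot go below p = 0.1. Libraries of a genotype correlated at r = 0.994 to 0.997 over genes (log2 CPM) and none was a copy of another. All 42 members are accounted for. Those called and not overlapping are given by replicate, and of each further list the up to 4 called genes with the largest change are named, except 1 gene that is not reported here. The functions were tested on simulated counts. Alternatives were DESeq2 1.42.0, limma-voom (3.58.1), library totals without TMM, median-of-ratios factors, no filter, a mean count of at least 50, a replicate block, each library left out, a change beyond 1.2-fold, the hepatocyte markers as a covariate and, for summed levels, FPKM on the TMM library size. Promoters came from RefSeq (GRCm38.p6) for 32 members.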

Additional observations from a re-analysis of the deposited data

How the results depend on the processing

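The count of called members was 23 with DESeq2, limma-voom and median-of-ratios factors (17 higher and 6 lower each), 24 without TMM, 27 without the filter and 21 with the hepatocyte covariate (31.0% of all genes). Over all genes the share called was 36.4% with DESeq2, 41.2% with limma-voom and 41.8% with median-of-ratios factors. It was 42.9% without TMM and 23.3% without the filter. Against a fold change of 1.2 the count of called members was 14 (2 lower, and 14.7% of all genes), with 7 adaptors and actin linkers (6 higher, 1 lower). The integrin subunits called lower numbered 1 with a mean count of at least 50, with the replicate block, against a fold change of 1.2 and with the hepatocyte covariate, since *Itga4* was not among the genes tested in the first and *Itgb1* was not called in the others. Leaving out each library gave 19 to 25 called members with 2 to 6 lower, 7 to 8 integrin subunits with 1 to 2 lower, and 12 to 17 adaptors and actin linkers with 1 to 4 lower. Over all genes these fits called 32.5% to 43.0%. The ratio of summed integrin TPM was 0.989 to 1.04 over the libraries left out, and turned to 0.989 without WT replicate 1. Without TMM 38.0% of all called genes were higher, against 50.3% with it, and the median log2 fold change of all genes moved from -0.01 to -0.07.

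Members that were not called turned sign. *Itga5* was at 0.0055 without the filter and ran from -0.0674 to 0.0422 over the libraries left out, among these 0.0048 without knockout replicate 1 and 0.0044 without knockout replicate 3. Without TMM *Itgav* was at -0.0175, *Itga6* at -0.0038, *Itga7* at -0.0100, *Fermt2* at -0.0117 and *Vcl* at -0.0277. In that setting the median of all genes moved from -0.01 to -0.07, so the shift was not particular to these members. *Itga7* ran from -0.0236, without WT replicate 1, to 0.108, and *Vcl* was at -0.0478 with the hepatocyte covariate. Why the signs turned in the other settings was not tested.

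With the replicate number as a block 22 members were called, 17 higher and 5 lower, and *Itgb1* missed the threshold (adjusted p = 0.0633). Of all genes 38.5% were called in this fit. Deviations of same-numbered libraries correlated at r = -0.156, 0.00462 and 0.184. Between differently numbered libraries r ran from -0.262 to 0.296. Whether libraries with the same number shared a culture or batch cannot be told from these values. The depth limits *Itga2*, *Itgb3*, *Itgb6*, *Itgb8*, *Lims2*, *Ilk*, *Cav1* and *Cav2*, at under 60 counts per library.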
